A study of Homo sapiens with 12 samples.

Results

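The arrays described here are the 6 of 12 on which the probe set of IGF2BP1 (probe set 16835517, the only 1 named for this gene) read above 6.5 on the log2 scale, set against the other 6, which read 6.5 or below. They are called IGF2BP1-high and IGF2BP1-low arrays. The arrays were chosen on these measured values, after the values had been seen and regardless of the labels, so every difference between high and low arrays is a description and carries no test.

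RNA came from Ishikawa cells, an established human endometrial adenocarcinoma line, and was measured on Affymetrix expression arrays. Cells labelled shMOF or control were studied in conditions labelled ERα(+) or ERα(-), with 3 arrays in each of the 4 groups: shMOF ERα(+), control ERα(+), shMOF ERα(-) and control ERα(-). KAT8 is the gene of MOF, which acetylates histone H4, and ESR1 the gene of ERα, a nuclear receptor for oestrogen. The labels do not say which hairpin was used, what the control cells carry, what separates ERα(+) from ERα(-), or whether replicates came from separate cultures. A p-value therefore covers the scatter of these arrays only, and that scatter may be technical.

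IGF2BP1 belongs to a family of KH-domain proteins that bind messenger RNAs and alter their stability, translation and localisation. It is called oncofetal because it is abundant in the embryo, silent in most adult tissues and found again in some tumours, and its messenger RNA is a target of the let-7 microRNAs. FN1 encodes fibronectin, a glycoprotein of the extracellular matrix and a common marker of mesenchymal character.

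IGF2BP1 (chr17:48996558-49056145, RefSeq annotation of GRCh38.p14, which also gives all other positions here) read 7.14, 8.05 and 7.15 on the 3 control ERα(-) arrays, 7.22 on shMOF ERα(-) replicate 2, and 7.71 and 7.77 on shMOF ERα(+) replicates 2 and 3. On the low arrays it read 5.57 and 5.34 on shMOF ERα(-) replicates 1 and 3, 5.62, 5.52 and 5.23 on the 3 control ERα(+) arrays, and 5.36 on shMOF ERα(+) replicate 1. No array lay near the threshold, since the lowest high array read 7.14 and the highest low array 5.62. This gap of 1.52 on the log2 scale was the widest between neighbouring arrays of any of the 14884 genes measured, and the next widest gap within IGF2BP1 was 0.49. The mean was 7.51 ± 0.39 on high and 5.44 ± 0.15 on low arrays (SD, n = 6 each), a difference of 2.07 or 4.19-fold.

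The split did not follow the ERα label among arrays labelled shMOF, whereas among arrays labelled control it was the same as that label. All 3 control ERα(-) arrays were high and all 3 control ERα(+) arrays were low, so within control arrays the level of IGF2BP1 and the ERα label cannot be told apart. Among shMOF arrays, 2 of 3 ERα(+) arrays were high, and 1 of 3 ERα(-) arrays was high. The labels, which the rule did not use, were set against the split. High arrays made up 3 of 6 shMOF and 3 of 6 control arrays (Fisher's exact test, two-sided, p = 1). They made up 2 of 6 ERα(+) and 4 of 6 ERα(-) arrays (Fisher's exact test, two-sided, p = 0.567, adjusted over the 2 tests p = 1). The smallest p that 6 arrays against 6 allow is 0.00216. Each test pools arrays that differ in the other label, and between these the shares of high arrays go opposite ways. The tests thus cannot show that the labels are unrelated to the split. The descriptions of the samples also give each array a short code, whose meaning is not stated. The high arrays carry A1, A2, B1, C1, G1 and H1, and the low arrays B2, C2, D1, D2, E1 and F1.

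Over all genes, the array with the closest profile, by Pearson's r, had the same IGF2BP1 level for 11 of 12 arrays, where 5 of the 11 candidates of each array have that level. It belonged to the same labelled group for 3 of 12 arrays, where 2 of the 11 candidates do. These counts share candidates and were not compared with each other. The exception was shMOF ERα(+) replicate 1, a low array whose closest array was the high array shMOF ERα(+) replicate 3. The first principal component held 36.8% of the variance and ran from 3.58 to 29.8 on high arrays and from -32.9 to 4.40 on low arrays. Control ERα(-) replicate 1 stood apart on the second component at 31.9. The median of all probe sets was 4.53 to 4.59 per array.

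KAT8, the gene of MOF, was not lower on arrays labelled shMOF. It averaged 6.78 ± 0.21 in shMOF and 6.74 ± 0.12 in control arrays in ERα(+) (SD, n = 3 each, limma adjusted p = 0.882), and 6.75 ± 0.03 in shMOF and 6.77 ± 0.10 in control arrays in ERα(-) (limma adjusted p = 0.993). The measured KAT8 level thus does not bear out the shMOF label, and shMOF is used below only as the label of an array. Between the arrays chosen on IGF2BP1, KAT8 overlapped and read 6.79 ± 0.14 on high and 6.73 ± 0.09 on low arrays (SD, n = 6 each). ESR1 read 4.12 to 4.43 on high and 4.28 to 4.65 on low arrays, below the median level of 5.66 of all genes. The other members of the IGF2BP family overlapped as well. IGF2BP2 read 8.69 to 8.92 on high and 8.75 to 8.93 on low arrays, and IGF2BP3 read 7.24 to 7.49 on high and 7.01 to 7.61 on low arrays.

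FN1 (probe set 16908037, chr2:215360865-215436068) ran opposite to IGF2BP1. On high arrays it read 6.51, 6.60 and 6.38 in control ERα(-), 6.14 in shMOF ERα(-) replicate 2, and 6.71 and 6.75 in shMOF ERα(+) replicates 2 and 3. Low arrays read 8.34 and 8.34 in shMOF ERα(-) replicates 1 and 3, 7.53, 8.16 and 8.27 in control ERα(+), and 7.95 in shMOF ERα(+) replicate 1. Every high array was thus below every low array, with means of 6.52 ± 0.23 and 8.10 ± 0.32 (SD, n = 6 each), a difference of -1.58 or 2.99-fold.

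Of the 14884 genes, 4 had a gap of at least 1 between neighbouring arrays. IGF2BP1 was 1 of them, and its gap separates the high from the low arrays by the rule. The others were NEXMIF, LRCH2 and NBEAP1, whose gaps separated the same arrays. NEXMIF and NBEAP1 lie below the median level and were picked after their values were seen. NEXMIF, an X-linked gene of neurite extension, read 4.75 to 5.16 on high arrays and 2.80 to 3.34 on low arrays. LRCH2, also on the X chromosome, encodes a protein with leucine-rich repeats and a calponin homology domain, and read 6.54 to 7.14 on high and 4.23 to 5.43 on low arrays. NBEAP1, a pseudogene on chromosome 15, ran the other way, at 2.67 to 3.94 on high and 4.97 to 5.96 on low arrays. The differences of means were 1.97 for NEXMIF, 1.84 for LRCH2 and -2.02 for NBEAP1. At a gap of at least 0.8 there were 7 genes, and the other 3, G0S2, IFI44L and SCARNA15, divided the arrays differently.

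**Figure D1:**
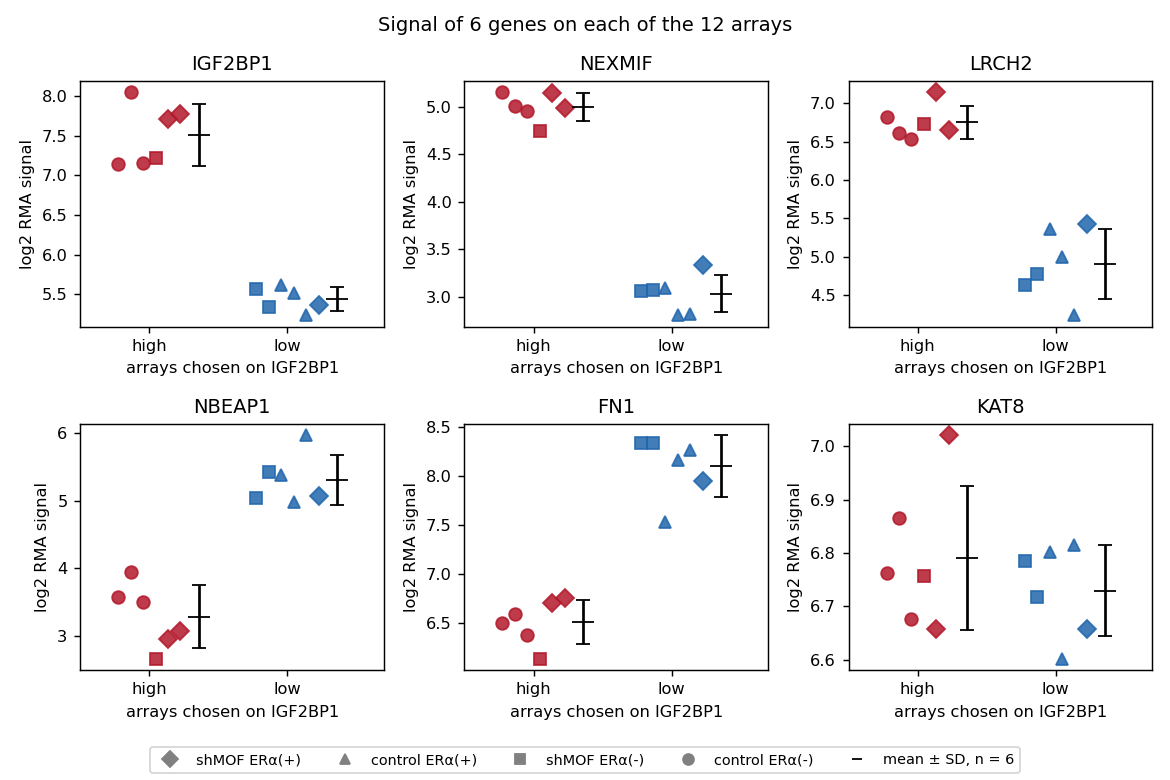
Log2 RMA signal of IGF2BP1, NEXMIF, LRCH2, NBEAP1, FN1 and KAT8 (vertical axes, each with its own range) on the 6 IGF2BP1-high arrays (red) and the 6 IGF2BP1-low arrays (blue), with symbols for the 4 labelled groups and bars for mean ± SD. The first 5 genes leave an empty band between high and low arrays, whatever the label, whereas KAT8 overlaps at 6.66 to 7.02 on high and 6.60 to 6.81 on low arrays.

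Across all genes, 259 (1.74%) read higher on every high array than on any low array, and 399 (2.68%) read lower on every high array, together 658 genes (4.42%). Because IGF2BP1 chose the arrays with all values known, these shares are given as the background for the counts below and nothing is read from them. IGF2BP1 itself is counted among the higher genes. With a difference of at least 1.5-fold as well, 66 genes were higher and 42 lower. Shifting every array to 1 common median gave 171 higher and 537 lower. Leaving out shMOF ERα(+) replicate 1 gave 633 higher and 784 lower, leaving out control ERα(-) replicate 1 gave 490 higher, and leaving out control ERα(-) replicate 2 gave 406 higher and 660 lower. Fewer arrays leave fewer chances to overlap.

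**Figure D2:**
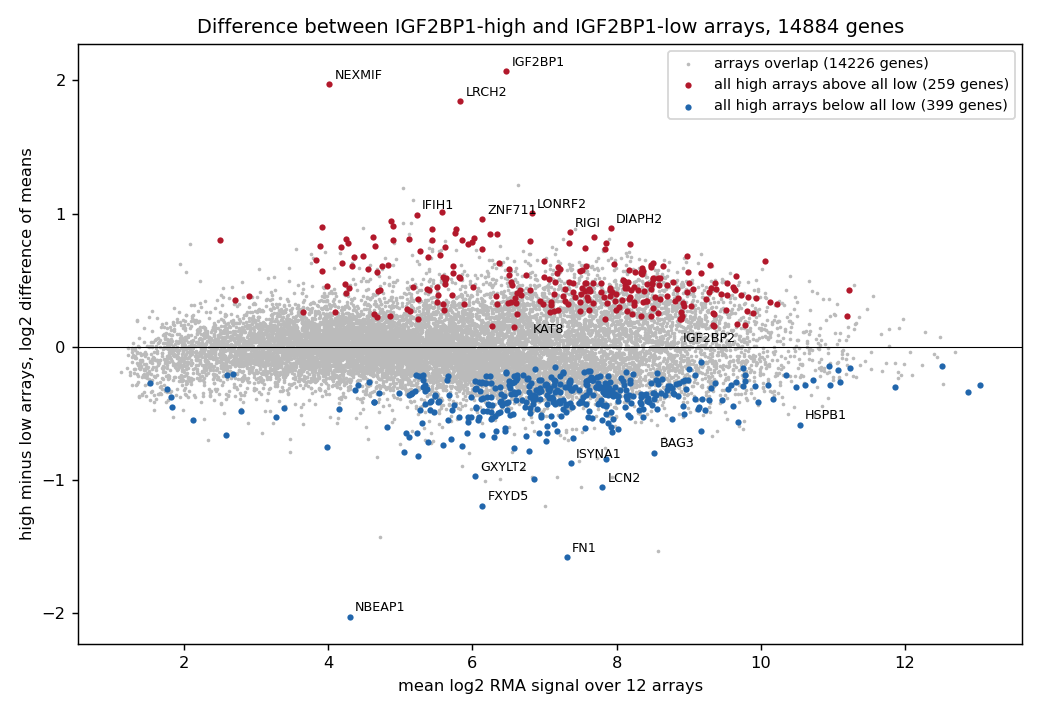
Difference of mean log2 signal between IGF2BP1-high and IGF2BP1-low arrays (vertical axis) against the mean over 12 arrays (horizontal axis) for 14884 genes. Red points mark the 259 genes with every high array above every low array, blue points the 399 with every high array below, and grey points the rest. IGF2BP1 and NEXMIF at the top and NBEAP1 and FN1 at the bottom lie farthest from 0.

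Among genes without overlap at or above the median level, the 12 in each direction with the largest difference are described. Some genes with overlap had larger differences, such as G0S2 at -1.53 and LGR5 at 1.21. LRCH2 led the higher genes without overlap. The next of these was LONRF2, which encodes a RING finger protein and read 6.99 to 7.60 on high arrays and 5.88 to 6.68 on low arrays. A set of 3 more X-linked genes followed the same order. ZNF711, a zinc finger gene, read 6.21 to 6.95 on high and 5.05 to 6.08 on low arrays. DIAPH2, a formin that nucleates actin filaments, read 8.10 to 8.73 on high and 7.07 to 7.90 on low arrays. CAPN6, a calpain relative that lacks protease activity, had the smallest SD of the 12 genes on high and on low arrays, at 6.67 to 6.86 on high and 5.72 to 6.09 on low arrays.

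The remaining higher genes had several kinds of role. RIGI, the cytosolic sensor of viral RNA, differed by 0.86, and KDM7A, a histone demethylase, by 0.86. KDM7A read 7.33 on control ERα(-) replicate 1 and 5.78 to 6.17 on the other 5 high arrays, against 4.98 to 5.51 on the low arrays. TMTC1, an O-mannosyltransferase of the endoplasmic reticulum, differed by 0.84. SHISA3, an antagonist of Wnt and FGF signalling, differed by 0.82, and ZC3H12C, a relative of the Regnase ribonucleases, by 0.82. HSD52 differed by 0.88. The probe set named for the microRNA hairpin MIR4742 differed by 0.80.

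Among the 12 lower genes without overlap, FN1 was followed by FXYD5, which encodes dysadherin, a membrane protein that regulates the sodium pump and weakens cell adhesion. FXYD5 read 5.28 to 5.85 on high arrays and 6.46 to 7.12 on low arrays, a difference of -1.19. LCN2, the iron-siderophore binding lipocalin 2 of uterine and other epithelia, read 6.96 to 7.59 on high arrays and 7.60 to 8.74 on low arrays, a difference of -1.06. Its lowest low array, shMOF ERα(+) replicate 1 at 7.60, lay beside the highest high array at 7.59. GXYLT2, a xylosyltransferase that extends sugars on Notch, read 5.39 to 5.86 on high and 6.08 to 6.76 on low arrays. ISYNA1, the enzyme that starts inositol synthesis, read 6.70 to 7.12 on high and 7.43 to 8.17 on low arrays. BAG3, a co-chaperone of HSP70, read 7.31 to 8.40 on high and 8.61 to 9.20 on low arrays.

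The other lower genes differed by less. PLLP, a membrane protein of the plasmolipin type, differed by -0.78, AMIGO2, an adhesion molecule, by -0.76, and NYNRIN by -0.75. CD68, a lysosomal glycoprotein known as a macrophage marker, differed by -0.71 (6.36 to 6.93 on high and 6.95 to 7.70 on low arrays). The pseudogene GGT3P differed by -0.84. The probe set named for the microRNA hairpin MIR4653 differed by -0.99.

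Control and shMOF arrays give the comparison of high with low arrays on separate samples, 3 against 3 in each. The arrays were picked by IGF2BP1 in both, and in control arrays the comparison is also that of the ERα labels. In control arrays, 162 genes were at least 1.5-fold higher on high arrays without overlap. Of these, 102 (63.0%) were also higher without overlap among shMOF arrays, where 12.7% of all genes were, and 151 had a positive difference there, as did 45.2% of all genes. In the other direction, 121 genes were at least 1.5-fold lower in control arrays. Of these, 67 (55.4%) were lower without overlap among shMOF arrays, against 14.6% of all genes, and 109 had a negative difference there, as did 54.8% of all genes. IGF2BP1, which chose the arrays, is counted in the 162, the 102 and the 151. Its differences, 2.15 in shMOF and 1.99 in control arrays, have their sign fixed by the rule. In shMOF and then control arrays, FN1 differed by -1.67 and -1.49, LRCH2 by 1.89 and 1.80, and FXYD5 by -1.29 and -1.10. These genes were without overlap over all arrays, so their signs agree by construction. Genes are not independent replicates, and no test was made of these shares.

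**Figure D3:**
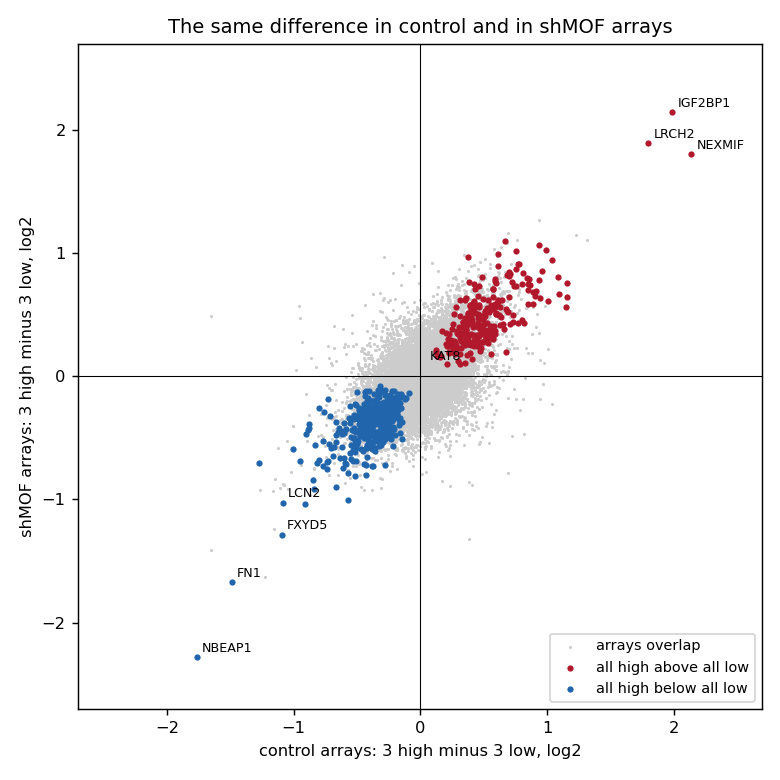
Difference between 3 high and 3 low arrays among shMOF arrays (vertical axis, log2) against the same difference among control arrays (horizontal axis, log2), with 1 point for each of 14884 genes. Red and blue points, the genes without overlap over all 12 arrays, have the same sign on both axes by construction. IGF2BP1, which chose the arrays, lies at 2.15 in shMOF and 1.99 in control arrays and FN1 at -1.67 and -1.49.

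The labelled comparisons were set by the labels and tested across all genes with limma. Among control arrays the ERα labels and the split coincide, so ERα(+) minus ERα(-) there is also low minus high. The p-values of IGF2BP1 and FN1 in that comparison belong to the labels and are no separate support for the split. No gene passed an adjusted p of 0.05 in any of 5 comparisons (0% in each). Unadjusted p-values below 0.05 numbered 711 for shMOF minus control in ERα(-), 2787 for shMOF minus control in ERα(+), 1894 for ERα(+) minus ERα(-) in control, 793 for ERα(+) minus ERα(-) in shMOF, and 2685 for the interaction (shMOF minus control in ERα(+), less the same in ERα(-)). IGF2BP1 had a log2 difference of 1.49 for shMOF minus control in ERα(+) (limma adjusted p = 0.228) and -1.40 in ERα(-) (limma adjusted p = 0.953). Its interaction was 2.90 ± 0.81 (SE, limma adjusted p = 0.219). FN1 had -0.85 in ERα(+) (limma adjusted p = 0.336), 1.11 in ERα(-) (limma adjusted p = 0.953) and an interaction of -1.96 ± 0.68 (SE, limma adjusted p = 0.223). For ERα(+) minus ERα(-) in control arrays the differences were -1.99 for IGF2BP1 and 1.49 for FN1 (limma adjusted p = 0.333 for both). The calls depended on the fit. A mean-variance trend with array quality weights called 787, 2077, 584, 2124 and 3559 genes in the order of the comparisons above, with IGF2BP1 past the threshold in all 5. With only the 2 control groups in the fit, limma called 9 genes, with an adjusted p of 0.0326 for IGF2BP1 and 0.0330 for FN1.

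In all, 21 gene lists were read on the split, chosen with earlier results of these data known. The interferon response list had the highest median. Interferon-induced genes are switched on when cells sense viral RNA or receive interferon, and the list holds sensors and antiviral effectors. Of its 34 genes, 22 were measured, 21 of these were above 0 and 4 were higher without overlap, where 1.74% of all genes were. The median difference was 0.50, against -0.01 for all genes. Only 8 of the 22 were at or above the median level of all genes. The mean signal of the list was 5.63 to 6.04 on high arrays and 5.13 to 5.62 on low arrays, which did not overlap. The lowest high and the highest low array were close.

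The 4 genes without overlap were RIGI, IFIH1, DDX60 and IFIT1. RIGI and IFIH1 encode the cytosolic RNA sensors RIG-I and MDA5, DDX60 a helicase that aids them, and IFIT1 an effector that binds viral RNA ends. RIGI read 7.85, 7.58, 7.66, 7.52, 8.17 and 7.91 on high arrays and 6.92, 7.12, 6.56, 7.11, 6.61 and 7.21 on low arrays. IFIH1 read 5.41 to 6.12 on high and 4.40 to 5.27 on low arrays, a difference of 0.99. DDX60 read 5.64 to 6.43 on high and 4.57 to 5.56 on low arrays, a difference of 0.88. IFIT1, which differed by 0.73, averaged 6.51 ± 0.29 on high and 5.77 ± 0.27 on low arrays (SD, n = 6 each). IFI44L and SAMD9 had larger mean differences, 1.19 and 1.10, with overlap. The mean signals of IFIH1, DDX60, IFI44L and SAMD9 lay below the median level of 5.66 of all genes. IFI44L read 5.27 to 6.17 on high arrays, while shMOF ERα(+) replicate 1 at 5.35 stood above the other low arrays, whose highest was 4.41.

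The promoters of these genes are shown because the list moved together and because interferon-induced genes are known for a shared promoter element. The core GAAANNGAAA was searched on both strands, overlaps included, in the 250 bases before the start of each gene (RefSeq, GRCh38.p14). It stood in 2.57% of 10749 promoters of measured genes, and in 11 of 17 promoters of the measured interferon genes that had a window (64.7%). The IFIT1 window lies at chr10:89392373-89392622 on the plus strand and holds 2 matches. The IFIH1 window lies at chr2:162318685-162318934 on the minus strand and holds 3 matches, of which some overlap. Capitals mark the matches on either strand, and the sequences run 5′ to 3′ toward the gene.
IFIT1: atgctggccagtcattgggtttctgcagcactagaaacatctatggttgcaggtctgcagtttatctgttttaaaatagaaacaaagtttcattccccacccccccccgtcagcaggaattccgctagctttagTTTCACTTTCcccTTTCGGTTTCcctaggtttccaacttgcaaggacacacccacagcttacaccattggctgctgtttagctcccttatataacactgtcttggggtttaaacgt
IFIH1: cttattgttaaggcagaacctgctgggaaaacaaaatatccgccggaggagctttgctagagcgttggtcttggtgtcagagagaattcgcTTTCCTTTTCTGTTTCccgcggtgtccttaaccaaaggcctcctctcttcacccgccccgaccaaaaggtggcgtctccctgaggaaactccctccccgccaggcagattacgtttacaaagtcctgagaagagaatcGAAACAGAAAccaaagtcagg
The DDX60 window held 2 matches and the RIGI window held 0. A match is a description of letters, and says nothing of a factor's binding in these cells.

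The interferon median stayed above 0 in each way of taking the difference that was tried. It was 0.47 in shMOF arrays and 0.62 in control arrays, and 0.67 in ERα(+) and 0.31 in ERα(-) arrays. Leaving out 1 array gave 0.44 to 0.58. The first principal component runs with the split, and the median was 0.35 when that component was a covariate.

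DNA repair genes had the next highest median. Of 12 measured, 10 were above 0, and the median was 0.24. Of these 12, 1 was higher without overlap, where 1.74% of all genes were. RRM2B, the p53-induced subunit of ribonucleotide reductase, was the 1 member without overlap, at 7.97 to 8.48 on high and 6.86 to 7.95 on low arrays. MRE11 and RAD50, partners in the complex that binds broken DNA ends, differed by 0.51 and 0.48, and ATR, a kinase of the replication stress response, by 0.43, all with overlap. The median was -0.04 once the first principal component entered as a covariate.

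Endometrial and matrix genes were mostly lower on high arrays. Of 16 endometrial epithelial genes measured, 13 were below 0, and 4 were lower without overlap, where 2.68% of all genes were. PAEP, which encodes glycodelin, a secreted protein of the secretory endometrium, read 4.19 to 5.01 on high and 5.21 to 5.76 on low arrays. MSX1, a homeobox gene of uterine epithelium, read 7.74 to 8.04 on high and 8.27 to 8.61 on low arrays. SOX17, a transcription factor of the endometrial glands, differed by -0.43 with overlap. The median of the list was -0.16, and -0.13 once the first component entered as a covariate. LGR5, a receptor for R-spondins that marks stem cells in several epithelia, went the other way, at 6.48 to 7.84 on high and 5.26 to 7.68 on low arrays.

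Of 15 matrix and mesenchymal genes measured, 12 were below 0, with a median of -0.15 (-0.07 once the first component entered as a covariate). Only 5 of the 15 were at or above the median level of all genes. Some differences were near 0, such as -0.01 for both ZEB2 and TWIST1. FN1 was 1 of 2 that were lower without overlap, where 2.68% of all genes were. THBS1, thrombospondin 1, differed by -0.49 and LOXL2, a collagen cross-linking enzyme, by -0.40. Its relative LOX was higher, at 6.04 to 7.91 on high and 5.79 to 6.29 on low arrays, with overlap. Of 21 epithelial junction and keratin genes, 10 were above and 11 below 0. Of these 21, 1 was higher and 1 lower without overlap, where 1.74% and 2.68% of all genes were. The higher was OCLN, the tight junction protein occludin, at 8.19 to 8.54 on high and 7.56 to 8.07 on low arrays. The lower was ESRP2, which differed by -0.33. KRT8 differed by -0.45, KRT7 by -0.42 and JUP, the junction protein plakoglobin, by -0.42, all with overlap.

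In the lists tied to IGF2BP1 by known function, the only member without overlap was IGF2BP1, which the rule itself separates. Of all genes, 4.42% were without overlap. At that share lists this short would hold few, so nothing is read from the count. Of 15 measured genes of the IGF2BP family and the let-7 and LIN28 axis, 6 were above and 9 below 0, with a median of -0.02. HMGA1 and HMGA2, chromatin proteins of which HMGA2 is a classic let-7 target, differed by -0.45 and 0.30, with overlap. Of 12 measured transcripts that have been described as bound by IGF2BP1, 4 were above and 8 below 0, with a median of -0.10. CD44, a cell-surface receptor for hyaluronan, differed most of these, at 6.83 to 8.10 on high and 7.77 to 9.24 on low arrays.

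The complexes of MOF and the genes of oestrogen response, the subjects of the labels, split about evenly in sign. Of 12 genes of the MOF complexes, 7 were above and 5 below 0, with a median of 0.005. Of these 12, 1 was lower without overlap, where 2.68% of all genes were. MCRS1, a subunit of the NSL complex that carries MOF, was the 1 without overlap, at 7.42 to 7.78 on high and 7.82 to 8.18 on low arrays. Of 22 measured oestrogen receptor genes, co-regulators and induced genes, 12 were above and 10 below 0, with a median of 0.01. Of these 22, 1 was higher and 1 lower without overlap, where 1.74% and 2.68% of all genes were. NCOA1, a co-activator of steroid receptors, read 8.24 to 8.62 on high and 7.70 to 8.21 on low arrays, and TSKU, tsukushi, read 7.36 to 7.86 on high and 8.07 to 8.47 on low arrays.

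Ribosomal protein genes and genes of oxidative phosphorylation were lower by small amounts. For ribosomal proteins, 15 of 16 measured genes were below 0, with a median of -0.15. Outside chromosome 9, 53.4% of genes at or above the median level were below 0. Of the 16, 2 were lower without overlap, where 2.68% of all genes were. RPS16, 1 of the 2, read 7.55 to 7.91 on high and 7.93 to 8.28 on low arrays. For oxidative phosphorylation, 7 of 8 were below 0, with a median of -0.17, and COX5B, a subunit of cytochrome c oxidase, differed by -0.45 with overlap. Once the first component entered as a covariate, these medians were 0.01 and 0.05. Of 35 cell cycle genes, 13 were above and 22 below 0, and 3 were lower without overlap, where 2.68% of all genes were. AURKB, the chromosomal passenger kinase, was lower without overlap at 7.88 to 8.41 on high and 8.42 to 8.92 on low arrays, while TOP2A, topoisomerase IIα, differed by 0.36 with overlap.

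Of 20 measured Wnt pathway genes, 9 were above and 11 below 0, and 2 were higher without overlap, where 1.74% of all genes were. LEF1, a transcription factor of the pathway, and DKK3 differed by -0.56 and -0.47, with overlap. Of 5 measured cancer-testis and placental genes, 4 were above 0. PRAME was lower without overlap, where 2.68% of all genes were. It averaged 5.54 ± 0.31 on high and 6.07 ± 0.18 on low arrays (SD, n = 6 each). Of 9 measured NF-kB and cytokine genes, 4 were above 0 and 0 were without overlap, where 4.42% of all genes were. CXCL10, a chemokine induced by interferon, differed by 0.62 with overlap.

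Immediate early genes, stress genes and hypoxia genes had 0 members without overlap, where 4.42% of all genes were. At that share lists this short would hold few, so nothing is read from the 0. Of 22 immediate early genes, 3 were above and 19 below 0, with a median of -0.06. Among genes at or above the median level outside chromosome 9, 53.4% were below 0. EGR1 differed by 0.64, IER3 by -0.65 and FOSL1 by -0.62. Of 13 genes of the unfolded protein and ATF4 response, 6 were above 0, and of 14 genes of hypoxia and glycolysis, 6 were above 0. The mean of the hypoxia list ran from 6.62 to 8.24 on high and from 6.85 to 7.13 on low arrays. Control ERα(-) replicate 1 alone gave the 8.24, and the other 5 high arrays read 6.62 to 6.72. The median difference of the list was -0.14, at -0.23 in shMOF and 0.13 in control arrays, -0.30 to -0.06 without 1 array, and 0.32 once the first component entered as a covariate. The same array gave the highest mean of the unfolded protein and ATF4 list, 8.73, against 7.11 to 7.52 on the other 5 high and 7.30 to 7.83 on the low arrays. The median difference of that list was -0.04, at -0.17 in shMOF and 0.26 in control arrays, and 0.28 with the same covariate. Of 10 cholesterol synthesis genes, 4 were above 0, and the means of the list overlapped almost fully, at 7.73 to 8.71 on high and 7.54 to 8.70 on low arrays.

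Markers of other cell types were few. Of 13 fibroblast and stromal markers, 4 were measured, with a mean of 3.54 to 4.30 on high and 3.44 to 4.10 on low arrays. The defining stromal genes DCN and LUM read 1.91 to 2.14 and 2.16 to 2.39 on high arrays, and 1.90 to 2.23 and 1.86 to 2.60 on low arrays, in that order, far below the median level. Of 11 immune and endothelial markers, 5 were measured, with a mean of 4.40 to 4.63 on high and 4.45 to 4.85 on low arrays. CD68 alone did not overlap, where 4.42% of all genes did not. In bulk RNA, fewer cells of a type and less RNA per cell cannot be told apart.

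**Figure D4:**
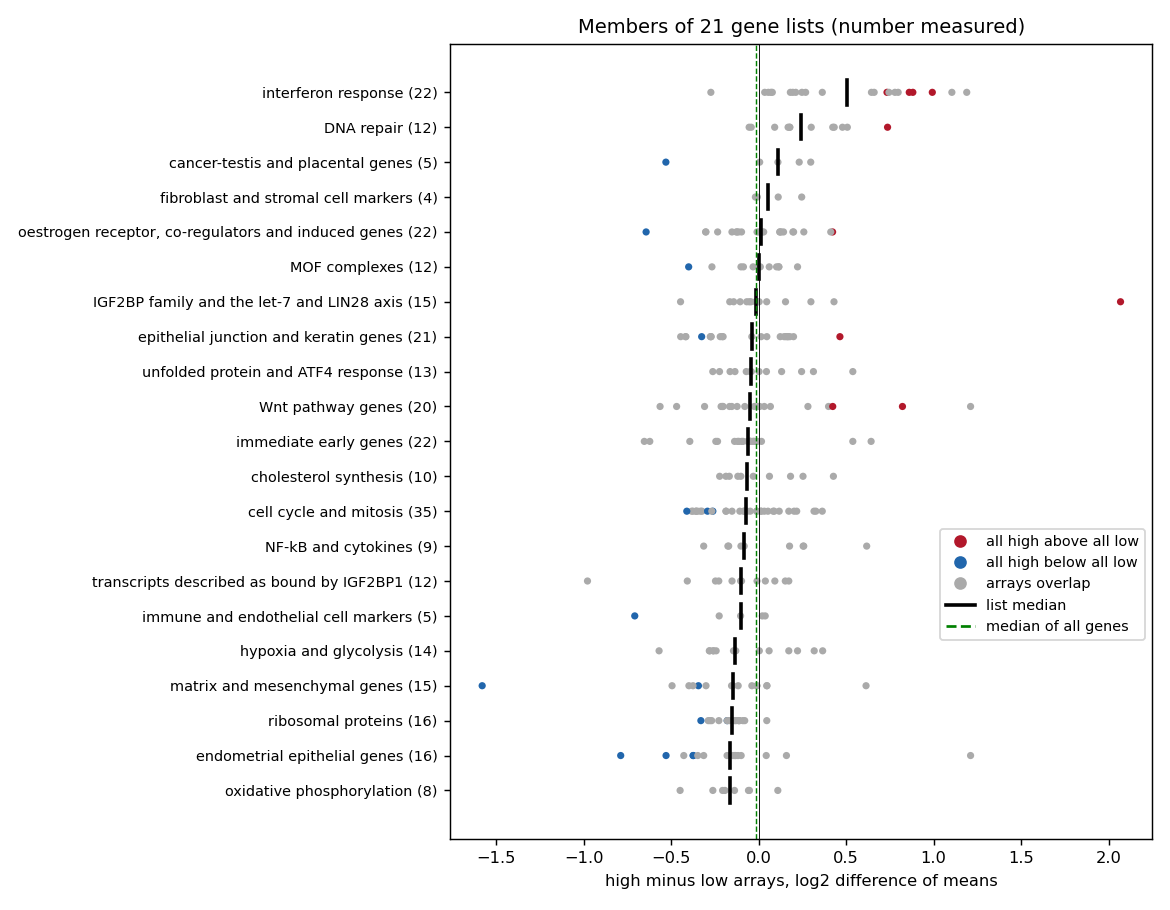
Difference of mean log2 signal between IGF2BP1-high and IGF2BP1-low arrays (horizontal axis) for the measured members of 21 gene lists (rows, with the number measured). Red and blue points are genes without overlap between high and low arrays, black bars list medians and the dashed line the median of all genes at -0.01. The interferon list has its median at 0.50, and FN1 and IGF2BP1 are the far points at -1.58 and 2.07.

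The genes without overlap also differed in length. The 259 higher genes had a median length of 59.2 kb, the 399 lower genes 18.1 kb and all genes 20.7 kb. Of the 3721 longest genes 3.49% were higher and 2.28% lower, and of the 3721 shortest 0.322% were higher and 2.47% lower. The X chromosome held 4.63% of the higher and 2.76% of the lower genes, near its 3.82% of all genes.

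Chromosome 9 held the densest run of lower genes. Of its genes at or above the median level, 139 started beyond 120 Mb, near the end of the long arm. Of these, 40 (28.8%) were lower without overlap, 0 were higher and 115 (82.7%) had a difference below 0. On the other chromosomes, 4.09% of 7117 such genes were lower, and 53.4% had a difference below 0. Differences below 0 were as common on chromosome 22 (82.9%) and numbered 72.2% to 74.9% on chromosomes 16, 17 and 19, where 6.35% to 7.09% of genes were lower without overlap. The median difference of the 139 genes was -0.27, at -0.31 in shMOF and -0.24 in control arrays. The median deviation of these genes from their own means ran from -0.28 to -0.05 on high arrays and from 0.05 to 0.27 on low arrays, which did not overlap. Those of chromosome 19 did not overlap either, by a narrow margin.

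The lower genes toward the end of chromosome 9 had varied roles, and were named after their values were seen. LCN2 is 1 of them. DNM1, the endocytic GTPase dynamin 1, differed by -0.65, NOTCH1, a receptor of cell fate decisions, by -0.58, and SSNA1, a microtubule-binding protein, by -0.63. LHX2, a LIM homeobox factor, differed by -0.53, and PTGES2, a prostaglandin E synthase, by -0.49. From 90 to 120 Mb, 11 of 68 genes were lower and 0 higher, with a median of -0.12. Below 90 Mb, 4 of 116 were lower and 8 higher, RIGI among them, with a median of 0.05.

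When the genome was read in windows of 10 Mb with at least 15 such genes, 187 windows in all, the 3 with the highest share of lower genes were all on chromosome 9. They began at 120, 130 and 90 Mb and had 30.3%, 27.4% and 25% of genes lower. The next window, on chromosome 16, had 17.9%. The median length of such genes was 13.1 kb beyond 120 Mb on chromosome 9 and 45.7 kb from 90 to 120 Mb. It was 16.5 kb on chromosome 19 and 28.3 kb on all chromosomes but 9. Chromosome 19 had a median difference of -0.18 over 583 genes, and 0.003 once the first component entered as a covariate. With the same covariate, the median beyond 120 Mb on chromosome 9 was -0.12 and that from 90 to 120 Mb was -0.16, against -0.02 for the other chromosomes. These regions were picked after the values were seen, and no test was made.

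**Figure D5:**
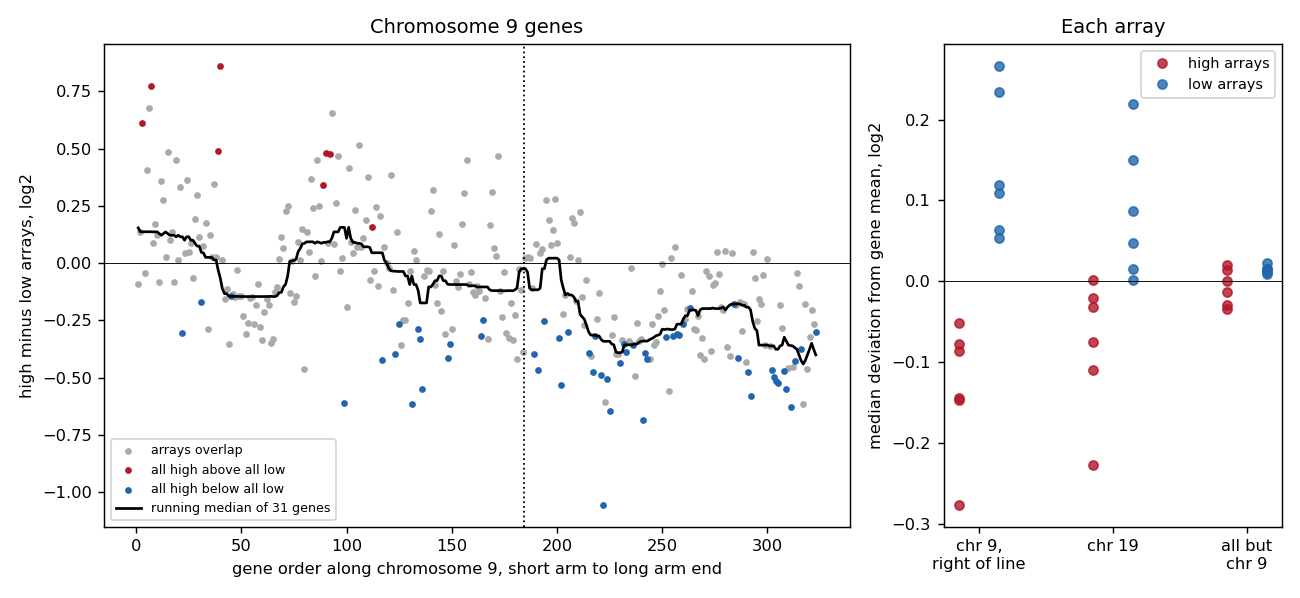
Left, difference of mean log2 signal between IGF2BP1-high and IGF2BP1-low arrays (vertical axis) for the genes of chromosome 9 at or above the median level, in their order along the chromosome (horizontal axis), with a running median and a dotted line before the last 139 genes. Right, the median deviation from the gene means on each of the 6 high (red) and 6 low (blue) arrays. Right of the dotted line 40 genes are blue and 0 red, and the high arrays lie between -0.28 and -0.05.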

How the data were processed

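The authors' deposited values are log2 signals. Per the submitters' processing notes, RMA was run in Affymetrix Expression Console 1.4.1. RMA corrects background, equalises the distributions of the arrays and summarises probes, and can compress differences of dim genes. The sources used here name no annotation or genome build for the probe sets. There were 53617 probe sets per array, of which 16098 had 1 gene symbol, 0 several and 37519 none here. The brightest probe set stood for each of 14884 genes, with no filter on dim genes. The number of arrays limits the precision.

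The arrays, genes, regions and gene lists were chosen with earlier results of these data known. High and low arrays were compared by differences of means and by whether their values overlapped. Named genes were IGF2BP1, FN1, IGF2BP2, IGF2BP3, KAT8 and ESR1, up to 12 per direction with the largest difference without overlap at or above the median level, and the up to 4 most different members of each list. Labels were tested with Fisher's exact test (scipy 1.17.1) and, gene by gene, with limma 3.58.1 in R 4.3.3 (4 group means, eBayes, two-sided, Benjamini-Hochberg over all genes within a comparison). The limma step was tested on simulated data. For same-numbered replicates, deviations from the group means correlated at -0.18 to 0.45, and above 0.1 in 5 of 18 pairs. Differently numbered arrays were not compared, so whether replicates pair was not settled. Alternatives were other probe set rules, filters, normalisations, subsets of arrays, a replicate block and array weights.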

Additional observations from a re-analysis of the deposited data

Results flagged for a closer look

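For each of 109 named genes the 6 high and the 6 low arrays were searched for an array far from the other 5, by the gap to its neighbour over the range. Of 218 such sets, 16 had an array past the 95% critical value for 6 values. Chance gives about 1 in 20 for independent sets not chosen on their values. Most of these genes were chosen on their values and share arrays, so that rate is no measure for the 16. No cause was tested.

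Control ERα(-) replicate 1 accounted for 7 of them. It read 7.33 for KDM7A, where the next high array read 6.17, and 7.31 for BAG3, where the next read 8.15. It was also the highest high array for the stress genes DDIT3 at 8.26 (next 5.70) and ASNS at 8.83 (next 7.74), and for the hypoxia-induced genes NDRG1 at 7.97 (next 5.63), KDM3A at 9.06 (next 7.43) and ANKRD37 at 8.07 (next 5.53).

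On shMOF ERα(+) replicate 1, a low array, the lowest values among low arrays were 7.60 for LCN2, 6.66 for PDLIM7 and 6.86 for FOSL1, and the highest was 5.35 for IFI44L. Among high arrays, TMTC1 was lowest on control ERα(-) replicate 3 at 6.31, CTSD lowest on shMOF ERα(+) replicate 2 at 10.3, and PECAM1 highest on shMOF ERα(+) replicate 3 at 4.76. Among low arrays, EGR1 was highest on control ERα(+) replicate 3 at 6.98, and KDR lowest on control ERα(+) replicate 1 at 3.57.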

How the results depend on the processing

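The counts of genes without overlap were 259 higher and 399 lower. Shifting arrays to 1 median gave 171 higher. By construction fewer arrays gave more: 2016 and 2248 in ERα(-) arrays alone, 1848 and 2140 in ERα(+), 1327 and 1540 in control, 1890 and 2170 in shMOF, and 743 and 843 for the 4 highest against the 4 lowest arrays. Leaving out 1 array gave 273 to 633 higher and 413 to 784 lower. Leaving out the 3 arrays at the ends of the components, chosen after seeing the data, gave 578 and 618. Of 2700 differences of named genes under 25 settings, 2609 moved by less than the spread between arrays and 91 by more. Of these 91, 62 came after adjustment for the first component, added after seeing the data. In all, 71 differences, from 33 genes, had the opposite sign (17 with that component), 0 of them from genes without overlap. Most settings only left out arrays, where a gene without overlap cannot change sign, so that 0 was largely fixed in advance. The difference in the share of high arrays between labels, in percentage points, was -10 to 10 for shMOF minus control and -46.7 to -26.7 for ERα(+) minus ERα(-) without 1 array.

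For limma, the comparisons are named in the order shMOF in ERα(-), shMOF in ERα(+), ERα in control, ERα in shMOF, and interaction. The replicate block called 2 genes in the interaction and changed no other call. Only the 2 groups compared called 9 genes for ERα in control, with IGF2BP1 at -1.99 and FN1 at 1.49 past the threshold. Among control arrays that comparison is also low minus high. A mean-variance trend with array quality weights called 787, 2077, 584, 2124 and 3559 genes, and put IGF2BP1 past the threshold in all 5 (-2.08, 1.60, -1.93, 1.75 and 3.68) and FN1 in 3 (1.77 for shMOF in ERα(-), -1.22 for ERα in shMOF and -2.39 for the interaction). The cause was not tested. Leaving out 1 array called 0 to 5, 0 to 30, 0 to 4, 0 to 11 and 0 to 570 genes, the highest each time without shMOF ERα(-) replicate 2. The IGF2BP1 interaction was then 2.48 to 3.69, past the threshold without shMOF ERα(-) replicate 2 and without shMOF ERα(+) replicate 1, and that of FN1 was -2.69 to -1.59, past the threshold without shMOF ERα(-) replicate 2.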
